A study of Mus musculus with 9 samples.

Results

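Neurons, oligodendrocytes and astrocytes are cells of the nervous system, and 31 genes that mark them were followed here through bulk RNA-seq of mouse kidney. Of the 31, 18 are neuronal, 8 belong to oligodendrocytes and their myelin, and 5 to astrocytes, out of 34310 genes in the expression table. They were taken by gene name from a list drawn up after the kidneys given lipopolysaccharide (LPS) plus Tβ4 had been compared with the kidneys given LPS alone. That comparison therefore chose them, and their values in it are a description without a test, as are their values against saline, which use the same LPS+Tβ4 libraries.

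The study concerns acute kidney injury in sepsis, modelled with LPS, a bacterial endotoxin, and its treatment with thymosin β4 (Tβ4), a peptide known for sequestering actin monomers. Fresh kidney tissue came from 3 mice given LPS and Tβ4, 3 given LPS and 3 given saline. The labels give no dose, route, time, strain, age or sex for any group, and no promoter, Cre or allele is part of the design. The groups are called LPS+Tβ4, LPS and saline kidneys below.

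Neurons signal by releasing transmitter from synaptic vesicles and keep long axons stiff with neurofilaments. Oligodendrocytes wrap axons of the brain and spinal cord in myelin, while Schwann cells, which use an overlapping but distinct set of proteins, do so in peripheral nerves. Astrocytes take up transmitter around synapses. A kidney normally receives the axons of sympathetic and sensory neurons whose cell bodies lie outside it, with Schwann cells along them, and it holds neither oligodendrocytes nor astrocytes. Several of the genes are also active in other cells: Mal, for example, encodes a membrane protein of myelin that also sorts proteins to the apical surface of kidney tubule cells.

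The 9 libraries held 52953654 to 62019631 counts each, so that a single count stood for 0.0143 to 0.0202 CPM (counts scaled to library depth, here by the trimmed mean of M-values). Some libraries stood apart in ways the groups do not explain. Genes of the urothelium, the lining of the renal pelvis, summed to 65.5 CPM in LPS+Tβ4 replicate 3 against 1.03 and 0.754 CPM in the other LPS+Tβ4 kidneys. They summed to 54.8 and 45.9 CPM in LPS replicates 1 and 2 against 0.924 CPM in replicate 3, and to 86.5 and 74.1 CPM in saline replicates 2 and 3 against 2.12 CPM in replicate 1. LPS replicate 1 also stood apart by genes of sensory neurons, described below. In bulk tissue, fewer cells of a type and less RNA per cell cannot be told apart.

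All 31 genes had counts in every LPS+Tβ4 kidney, and the levels of most varied little between these animals. The coefficient of variation across the 3 LPS+Tβ4 kidneys was under 20% for 25 of the 31 and 57.2% for Mal. These libraries helped to choose the genes, so nothing is read from either observation. Every LPS+Tβ4 kidney lay above every LPS kidney for 25 of the genes, and the ranges overlapped for the other 6, Mal, Cnp, Aldoc, Stmn2, Nefl and Nefm; over all 15015 genes tested 14.4% showed that separation upward, and nothing is read from it for genes chosen by this contrast. Against saline the LPS+Tβ4 range was higher for 30 genes and overlapped for Mal, beside 24.7% of all genes. For 25 genes all 3 LPS+Tβ4 kidneys lay above all 6 others, beside 3.62% of all genes. The median log2 fold change of the 26 genes that passed the expression filter, a mean of at least 0.5 FPKM (fragments per kilobase of transcript, scaled to sequencing depth) over the 9 libraries, was 2.75 in LPS+Tβ4 over LPS and 3.00 over saline. The medians of all genes tested were -0.01 and 0. Only 13 of the 31 pass the same filter on the 6 libraries without Tβ4, so the other members that passed did so through the group in which they are high.

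**Figure D1:**
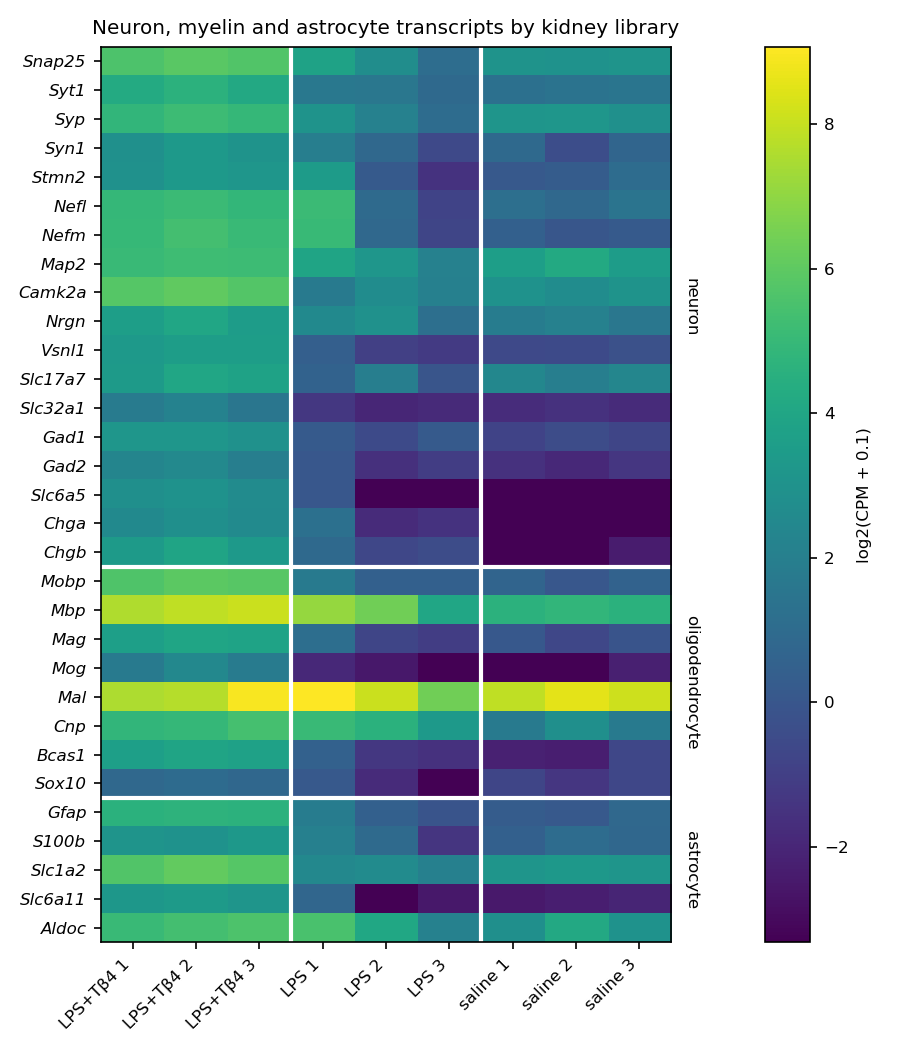
Level of each of the 31 transcripts (rows, by class) in each of the 9 kidney libraries (columns), as log2 of CPM plus 0.1, from dark (low) to yellow (high). The 3 LPS+Tβ4 columns are alike and brighter than the rest for most rows; Mal is bright throughout, and Nefl, Nefm and Stmn2 are as bright in LPS replicate 1 as in LPS+Tβ4.

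All classes were high together, which shows in their summed levels, taken without Mal and Mbp because these would outweigh the rest. The 18 neuronal transcripts summed to 363 ± 42.0 CPM in LPS+Tβ4 kidneys, 70.8 ± 62.3 CPM in LPS kidneys and 56.2 ± 1.40 CPM in saline kidneys (SD, n = 3 each). The 6 oligodendrocyte transcripts summed to 124 ± 12.2, 26.8 ± 15.1 and 7.35 ± 1.5 CPM in LPS+Tβ4, LPS and saline kidneys. The 5 astrocyte transcripts summed to 143 ± 14.0, 31.7 ± 25.9 and 23.0 ± 6.70 CPM in the same order of groups. The LPS kidneys were the uneven group: LPS replicates 1, 2 and 3 had 141, 49.3 and 22 CPM of the neuronal sum. These transcripts were still a small part of each library, since without Mal and Mbp they took 0.0572% to 0.0725% of the counts of the LPS+Tβ4 kidneys, 0.00413% to 0.0274% of the LPS kidneys and 0.00705% to 0.00959% of the saline kidneys.

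**Figure D2:**
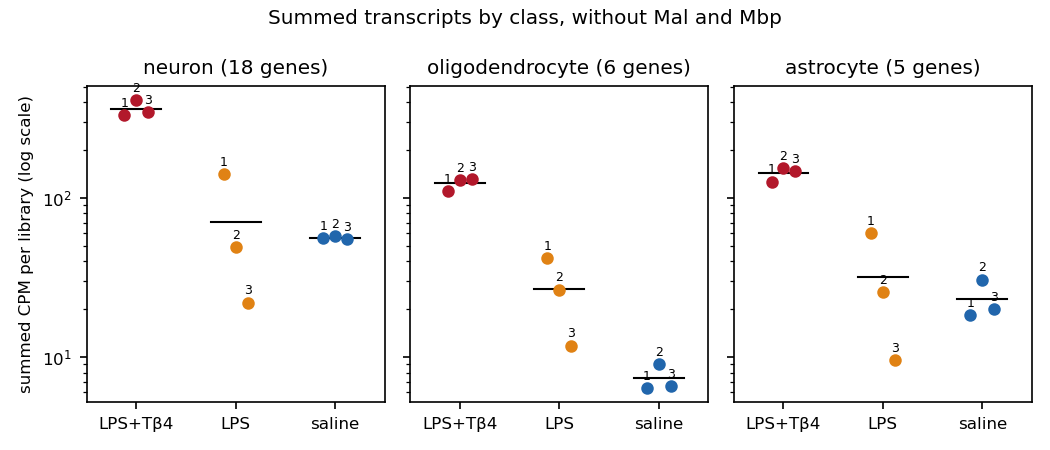
Summed CPM per library (log axis) of the neuronal, oligodendrocyte and astrocyte transcripts, without Mal and Mbp; points are kidneys numbered by replicate and bars are group means. The LPS+Tβ4 kidneys lie together at the top of each panel, the saline kidneys together near the bottom, and the LPS kidneys spread between 141 and 22 CPM in the neuronal panel.

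Among the 31, the myelin transcripts Mog and Mobp gave the widest separations. Mobp, which encodes a basic protein of compact central myelin (chromosome 9, 120149707 to 120176091, plus strand), had 51.1, 61.9 and 56.7 CPM in LPS+Tβ4 kidneys. It had 3.32, 1.30 and 1.30 CPM in LPS kidneys and 1.47, 0.933 and 1.40 CPM in saline kidneys. The lowest LPS+Tβ4 kidney was 15.4-fold above the highest other kidney, and the log2 fold change was 4.84 ± 0.42 over LPS and 5.48 ± 0.43 over saline (SE). Mog, a surface protein of central myelin that Schwann cells lack, had 3.23, 5.45 and 3.46 CPM in LPS+Tβ4 kidneys. LPS kidneys had 0.168, 0.0763 and 0 CPM of Mog, and saline kidneys 0, 0 and 0.110 CPM. Its lowest LPS+Tβ4 value was 19.2-fold above the highest other kidney, the widest gap among the 31. Mag, a myelin glycoprotein at the contact with the axon that Schwann cells also make, had 12.7, 15.3 and 14.3 CPM in LPS+Tβ4 kidneys. Its LPS kidneys had 2.11, 0.496 and 0.381 CPM and its saline kidneys 0.948, 0.518 and 0.827 CPM, again without overlap. Bcas1, which marks oligodendrocytes that have begun to make myelin, had 12.5, 15.1 and 13.7 CPM in LPS+Tβ4 kidneys, against 1.36, 0.305 and 0.236 CPM in LPS kidneys and 0.121, 0.104 and 0.515 CPM in saline kidneys.

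The promoters of Mobp and Mag are shown because neither transcript overlapped between LPS+Tβ4 and the other kidneys. Myelin genes are also known targets of Sox10, a SOX-family transcription factor. The sequences are RefSeq windows of GRCm38.p6, 250 bases before to 50 after an annotated start, and RefSeq windows were matched for 23 of the 31 genes. Capitals mark CTTTGT, the reverse complement of the SOX-type core ACAAAG, searched on both strands. They run 5′ to 3′ on the gene's strand. The Mobp window lies at chr9:120149492-120149791 (plus strand) and the Mag window, 1 of 3 for that gene, at chr7:30914814-30915113 (minus strand).
Mobp: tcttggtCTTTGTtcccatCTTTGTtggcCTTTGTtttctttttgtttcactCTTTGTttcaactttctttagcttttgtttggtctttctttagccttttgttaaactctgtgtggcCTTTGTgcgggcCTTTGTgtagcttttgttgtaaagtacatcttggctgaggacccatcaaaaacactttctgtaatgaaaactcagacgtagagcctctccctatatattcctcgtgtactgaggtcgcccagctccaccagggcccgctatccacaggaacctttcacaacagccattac
Mag: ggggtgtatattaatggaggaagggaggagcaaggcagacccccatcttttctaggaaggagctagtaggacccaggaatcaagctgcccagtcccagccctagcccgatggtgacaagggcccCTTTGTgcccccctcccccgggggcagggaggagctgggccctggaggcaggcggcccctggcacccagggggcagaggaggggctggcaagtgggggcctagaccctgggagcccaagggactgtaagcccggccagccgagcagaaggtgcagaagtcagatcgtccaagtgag
The Mobp window holds 6 matches, at -243, -231, -221, -198, -132 and -120 relative to the start, and it is the only 1 of 32851 mouse promoter windows with 6 or more (0.00304%). The Mag window holds 1, at -126. At least 1 match occurs in windows of 5 of the 23 genes (Cnp, Gad1, Mag, Mobp and Syt1) and in 18.7% of all windows, and a match of these letters is not evidence of a bound site.

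The remaining oligodendrocyte genes were less distinct. Sox10 itself, needed by oligodendrocytes and Schwann cells alike, had 1.72, 1.94 and 1.67 CPM in LPS+Tβ4 kidneys, 1.01, 0.191 and 0 CPM in LPS kidneys and 0.504, 0.294 and 0.515 CPM in saline kidneys. It did not pass the expression filter. Mbp, the main basic protein of all myelin, had 194, 235 and 274 CPM in LPS+Tβ4 kidneys, 138, 83.2 and 16.2 CPM in LPS kidneys, and 25, 28.1 and 23.8 CPM in saline kidneys. Its ranges did not overlap, but LPS replicate 1 reached 59.0% of the LPS+Tβ4 mean. Cnp, a cyclic nucleotide phosphodiesterase abundant in myelin, had 28.7, 30.0 and 42.6 CPM in LPS+Tβ4 kidneys, 34.1, 24.2 and 9.90 CPM in LPS kidneys and 3.35, 7.22 and 3.22 CPM in saline kidneys, so that it separated from saline and overlapped with LPS. Mal had 188, 209 and 490 CPM in LPS+Tβ4 kidneys, 537, 266 and 84.3 CPM in LPS kidneys and 237, 380 and 276 CPM in saline kidneys, which overlap throughout. Its log2 fold changes were 0.00 over LPS and -0.01 over saline. The 4 kidneys low in urothelial genes (LPS+Tβ4 replicates 1 and 2, LPS replicate 3 and saline replicate 1) were also the 4 lowest in Mal; the part of that difference in the Mal levels was not tested.

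Among the astrocyte transcripts, Slc1a2, the glutamate transporter that clears most glutamate from brain synapses, separated all of the groups. It had 52.1, 67.8 and 55.5 CPM in LPS+Tβ4 kidneys, 5.43, 6.12 and 4.06 CPM in LPS kidneys and 8.79, 9.74 and 8.62 CPM in saline kidneys, and no kidney of one group fell within the range of another. Gfap, the intermediate filament of astrocytes and also of non-myelinating Schwann cells, had 23.7, 25.8 and 24.8 CPM in LPS+Tβ4 kidneys. It had 3.55, 1.28 and 0.816 CPM in LPS kidneys and 1.13, 1.00 and 1.71 CPM in saline kidneys. Its coefficient of variation across the LPS+Tβ4 kidneys, 4.35%, was the smallest of the 31. Slc6a11, a GABA transporter of astrocytes, had 9.35, 10.8 and 8.76 CPM in LPS+Tβ4 kidneys, against 1.60, 0 and 0.0725 CPM in LPS kidneys and 0.0807, 0.104 and 0.147 CPM in saline kidneys. S100b, a calcium-binding protein of astrocytes and Schwann cells, averaged 8.73 ± 0.911 CPM in LPS+Tβ4 kidneys, 2.07 ± 1.92 CPM in LPS kidneys and 1.64 ± 0.357 CPM in saline kidneys (SD, n = 3 each). Aldoc, the brain form of the glycolytic enzyme aldolase, overlapped between LPS+Tβ4 kidneys (33.6, 41.6 and 48.3 CPM) and LPS kidneys (45.6, 16.3 and 4.30 CPM), and had 7.02, 17.9 and 8.00 CPM in saline kidneys.

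The neuronal genes of transmitter release were high in every LPS+Tβ4 kidney. Snap25, a SNARE protein that drives vesicle fusion, had 47.9, 58.6 and 52.7 CPM in LPS+Tβ4 kidneys, 13.8, 6.68 and 2.08 CPM in LPS kidneys and 8.09, 7.77 and 8.51 CPM in saline kidneys. Syt1, the calcium sensor of that fusion, had 18.7, 24.9 and 17.9 CPM in LPS+Tβ4 kidneys, 3.00, 2.88 and 1.78 CPM in LPS kidneys and 2.30, 2.56 and 2.68 CPM in saline kidneys. Both stood apart in LPS+Tβ4 and had saline kidneys within a narrow range. Syp (synaptophysin), a protein of the vesicle membrane, averaged 31.5 ± 3.79 CPM in LPS+Tβ4 kidneys, 4.78 ± 3.03 CPM in LPS kidneys and 8.37 ± 0.894 CPM in saline kidneys (SD, n = 3 each). Syn1 (synapsin), which tethers vesicles to actin, averaged 8.55 ± 1.36, 2.02 ± 1.65 and 1.33 ± 0.581 CPM in LPS+Tβ4, LPS and saline kidneys. Synapsin is a textbook target of REST, the repressor that silences neuronal genes in other tissues, and its promoter is printed for that reason. The window is chrX:20920869-20921168 (minus strand, RefSeq, GRCm38.p6), and capitals mark TTCAGCACC, the left part of the RE1 element that REST binds.
Syn1: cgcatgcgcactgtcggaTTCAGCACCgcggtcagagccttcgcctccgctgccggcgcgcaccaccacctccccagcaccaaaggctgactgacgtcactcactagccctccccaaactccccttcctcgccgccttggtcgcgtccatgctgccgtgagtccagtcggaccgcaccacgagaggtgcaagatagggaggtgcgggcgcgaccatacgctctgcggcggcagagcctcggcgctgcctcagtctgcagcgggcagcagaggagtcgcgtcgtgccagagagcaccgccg
The match begins at -232. On either strand these letters occur in 0.371% of all promoter windows and, of the 23 matched genes, in Syn1; the right part, GGACAG, occurs in 8 of the 23 genes and in 22.2% of all windows. Both parts together occur in 0 of the 23 genes and in 0.0913% of all windows, and nothing follows from this about the factor.

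The cytoskeletal genes behaved differently in LPS replicate 1. Nefl, the light neurofilament subunit, had 30.0, 34.6 and 29.5 CPM in LPS+Tβ4 kidneys, 34.6, 1.87 and 0.471 CPM in LPS kidneys and 2.24, 1.71 and 2.59 CPM in saline kidneys. Nefm, the medium subunit, had 31, 41.2 and 34.0 CPM in LPS+Tβ4 kidneys, 32.1, 1.72 and 0.507 CPM in LPS kidneys and 1.29, 0.881 and 1.03 CPM in saline kidneys. Stmn2, a tubulin-binding protein of growing axons, had 7.51, 10.3 and 9.02 CPM in LPS+Tβ4 kidneys, 11.2, 1.05 and 0.254 CPM in LPS kidneys and 0.988, 1.11 and 1.99 CPM in saline kidneys. Without LPS replicate 1 the LPS+Tβ4 kidneys would lie above every other kidney for all of these. Map2, a microtubule protein of dendrites, had 33.3, 36.9 and 35.5 CPM in LPS+Tβ4 kidneys, 15.2, 9.10 and 4.31 CPM in LPS kidneys and 12.2, 18.1 and 11.4 CPM in saline kidneys; the saline mean was 39.4% of the LPS+Tβ4 mean, the highest share of any neuronal gene.

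The calcium signalling genes include those most typical of forebrain excitatory neurons. Camk2a, a kinase of the postsynapse, had 55.2, 66.6 and 54.5 CPM in LPS+Tβ4 kidneys, 3.18, 6.43 and 4.06 CPM in LPS kidneys and 7.87, 6.32 and 8.26 CPM in saline kidneys. It differed from the neurofilaments in LPS replicate 1, which had 5.41% of the LPS+Tβ4 mean of Camk2a and 110% of that of Nefl. Vsnl1, a neuronal calcium sensor, averaged 11.1 ± 1.12 CPM in LPS+Tβ4 kidneys, 0.655 ± 0.506 CPM in LPS kidneys and 0.635 ± 0.103 CPM in saline kidneys (SD, n = 3 each). Nrgn (neurogranin), a calmodulin-binding protein of dendritic spines, averaged 13.2 ± 2.30, 5.20 ± 2.76 and 3.59 ± 0.682 CPM in LPS+Tβ4, LPS and saline kidneys.

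Transmitter genes of excitatory, GABA and glycine neurons were all counted in LPS+Tβ4 kidneys. Slc17a7, the vesicular glutamate transporter typical of cortex, had 10.6, 16.1 and 14.0 CPM in LPS+Tβ4 kidneys, 1.41, 3.83 and 0.870 CPM in LPS kidneys and 5.20, 3.89 and 5.02 CPM in saline kidneys. Slc6a5, the glycine transporter of inhibitory neurons in brainstem and spinal cord, had 6.99, 7.76 and 6.14 CPM in LPS+Tβ4 kidneys, 0.917, 0 and 0 CPM in LPS kidneys and no count in saline kidneys. Against a floor of 3 counts over the saline group, Slc6a5 was at least 374-fold higher in LPS+Tβ4. Both glutamate decarboxylases, which make GABA, were low outside LPS+Tβ4: Gad1 averaged 8.57 ± 0.887, 0.889 ± 0.258 and 0.533 ± 0.0932 CPM in LPS+Tβ4, LPS and saline kidneys. Gad2 averaged 4.75 ± 0.884, 0.514 ± 0.370 and 0.236 ± 0.0609 CPM, and Slc32a1, which loads GABA and glycine into vesicles, 3.56 ± 0.752, 0.213 ± 0.0814 and 0.209 ± 0.0297 CPM, in the same groups (SD, n = 3 each). Slc32a1, Gad1, Gad2 and Slc6a5 fell under the expression filter, like Sox10, and have no fitted fold change. The granins of dense-core granules, shared by neurons and endocrine cells, were counted almost only in kidneys that had received LPS. Chga had 5.75, 7.14 and 6.01 CPM in LPS+Tβ4 kidneys, 2.31, 0.191 and 0.254 CPM in LPS kidneys and no count in saline kidneys. Chgb had 10.5, 14.8 and 9.96 CPM in LPS+Tβ4 kidneys, 1.76, 0.515 and 0.634 CPM in LPS kidneys and 0, 0 and 0.0919 CPM in saline kidneys.

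LPS against saline is the comparison that did not choose the genes, and few of them passed in it. With edgeR's quasi-likelihood test and Benjamini-Hochberg adjustment over 15015 genes, 3 of 26 members were higher in LPS and 2 were lower, beside 43.1% of all genes called (20.9% higher, 22.2% lower). Of the 26, 13 reached the expression filter only with the LPS+Tβ4 libraries counted in it, Chga, Chgb and Slc1a2 among them. The other 13 would have reached it without those libraries. With the filter set on the saline libraries alone, 13 members were tested and 3 passed: Cnp and Mbp higher, Slc1a2 lower. At an unadjusted p under 0.05 there were 8 of the 26. The median log2 fold change was 0.58, against 0.02 for all genes. Cnp was higher in LPS by 2.30 ± 0.49 (log2, SE, adjusted p = 0.0059 by edgeR). Chgb was higher by 4.89 ± 0.99 (adjusted p = 0.0048), and Chga passed (adjusted p = 0.0086) with a level at least 54.6-fold above the saline floor of 3 counts. Slc1a2 was lower in LPS, at a log2 fold change of -0.80 ± 0.18 (adjusted p = 0.0080), and Camk2a at -0.72 ± 0.25 (adjusted p = 0.049), a call that 16 of 19 alternatives ended. LPS and saline ranges separated for the same number, 3 higher and 2 lower, beside 25.8% and 28.5% of all genes. Values that did not pass include Nefm at 3.42 (adjusted p = 0.057), Mbp at 1.63 (adjusted p = 0.055) and Slc17a7 at -1.21 (adjusted p = 0.078).

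Single LPS kidneys decided several of these values. Without LPS replicate 3, 9 members passed rather than 5: Mbp (log2 fold change 2.11, adjusted p = 0.00071), Nefm (3.99, 0.013), Nefl (3.07, 0.029), Nrgn (0.90, 0.028) and Aldoc (1.5, 0.048) joined in edgeR's test, and Camk2a (-0.64, adjusted p = 0.12) dropped out. Without LPS replicate 1, Syp (-1.36, adjusted p = 0.0091 by edgeR), Map2 (-1, 0.039) and Vsnl1 (-0.76, 0.045) were lower in LPS. Of these, Vsnl1 reached the expression filter only with the LPS+Tβ4 libraries counted in it. In the same setting Camk2a did not pass (-0.47, 0.12), and Nefl turned to -0.86 without passing. Without LPS replicate 2, Slc17a7 (-1.99, adjusted p = 0.0043) and Nefm (3.98, 0.039) passed. Camk2a also failed without any 1 of the LPS+Tβ4 or saline kidneys, at adjusted p of 0.058 to 0.14 by edgeR.

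LPS replicate 1 was the highest LPS kidney for 26 of the 31 genes, replicate 2 for 4 and replicate 3 for 1. Relative to the LPS+Tβ4 mean of each gene, the median was 19.6% in LPS replicate 1, 10.5% in replicate 2 and 5.09% in replicate 3, and 9.91%, 7.88% and 9.53% in saline replicates 1, 2 and 3. In LPS replicate 1 the genes did not move by a common factor: Stmn2, Nefl and Nefm stood at 126%, 110% and 90.7% of the LPS+Tβ4 mean, while Mobp, Camk2a and Mog stood at 5.86%, 5.41% and 4.15%. Across the 31 genes, Spearman's rho of CPM was 0.99 between any pair of LPS+Tβ4 kidneys and 0.98 between any pair of saline kidneys. It was 0.77 to 0.80 between LPS replicate 1 and saline kidneys, 0.93 to 0.95 for LPS replicate 2 and 0.84 to 0.87 for LPS replicate 3. LPS+Tβ4 kidneys had 0.75 to 0.83 with the 6 others. These describe 31 genes within shared libraries and are not replicates.

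**Figure D3:**
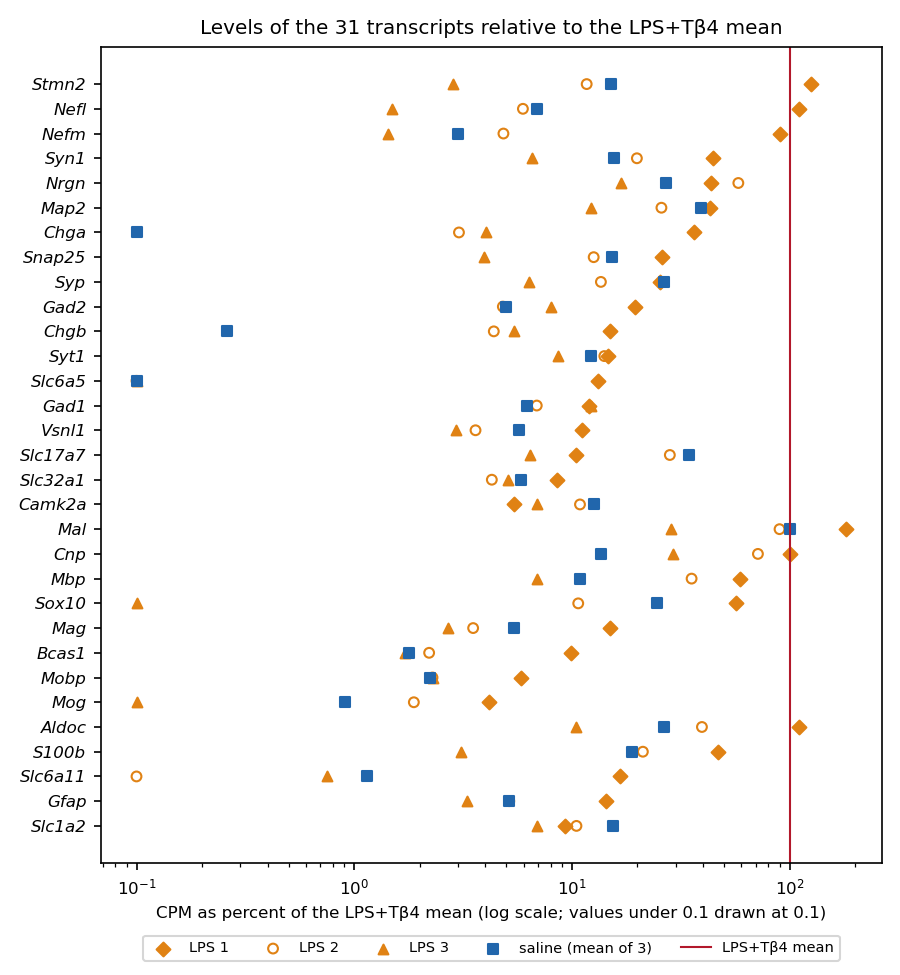
CPM of each transcript in LPS replicates 1, 2 and 3 and in saline (mean of 3) as a percent of its LPS+Tβ4 mean, on a log axis with values under 0.1 drawn at 0.1; the line is 100%. In LPS replicate 1, Stmn2, Nefl, Cnp, Aldoc and Mal reach the line, while Mobp, Mog and Camk2a stay near 5%.

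By FPKM, which allows levels of different genes to be set side by side, Mal led in LPS+Tβ4 kidneys with a mean of 104 FPKM, followed by Mbp (26.5), Aldoc (12.1), Cnp (8.92) and Nefl (8.80). In saline kidneys the order began with Mal (89.2 FPKM), Aldoc (2.82), Mbp (2.49) and Nrgn (2.04). The saline mean was under 5% of the LPS+Tβ4 mean (CPM) for 9 genes and over 25% for 6.

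Genes of the same cell types outside the 31 were read from lists of 45 neuronal, 25 oligodendrocyte and 23 astrocyte genes, written from textbook knowledge with earlier results of these data known. They use the contrast that chose the 31 and so do not stand as independent support. Of 64 that passed the filter, 24 were higher in LPS+Tβ4 than in LPS and 0 lower by edgeR, beside 4.5% higher and 2.33% lower over all genes (6.83% called). Unadjusted p-values under 0.05 numbered 40 upward and 1 downward, and DESeq2 called 40 higher and 1 lower. Of the 64, 47 reached the filter on the saline libraries alone and hold 17 of the 24 calls; the rest reached it through the levels of the other groups, so their calls lean on the contrast tested. The count was 13 of 31 neuronal, 5 of 15 oligodendrocyte and 6 of 18 astrocyte genes. It fell to 3 without LPS+Tβ4 replicate 2, to 11 without LPS+Tβ4 replicate 1 or without LPS replicate 2, and to 14 without saline replicate 3. It was 36 called, 35 of them higher, without LPS replicate 1. It was 0 when the 6 LPS+Tβ4 and LPS libraries were fitted alone, where 3 genes passed in the whole table and 40 of the 64 had an unadjusted p under 0.05. The median log2 fold change of the 64 was 1.53, with -0.01 over all genes.

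Omg, an oligodendrocyte glycoprotein, averaged 3.35, 0.265 and 0.485 CPM in LPS+Tβ4, LPS and saline kidneys, with a log2 fold change over LPS of 3.65 ± 0.39 (adjusted p = 0.0073 by edgeR). Omg lies within Nf1 on the opposite strand, Nf1 had 31.4 times its counts, and no source used here says whether counting used strand, so reads of both genes may not be told apart. Plekhb1, a membrane-associated protein of oligodendrocytes, rose by 1.43 over LPS. Tspan2, a tetraspanin of oligodendrocytes, averaged 8, 2.40 and 8.76 CPM in LPS+Tβ4, LPS and saline kidneys: it rose by 1.74 over LPS, was lower in LPS than in saline (-1.87, adjusted p = 0.0048) and did not pass in LPS+Tβ4 against saline (-0.13, adjusted p = 0.83). Of neuronal genes, Dlg4, a postsynaptic scaffold, averaged 23.5, 7.23 and 12.6 CPM in LPS+Tβ4, LPS and saline kidneys (1.70 ± 0.20, adjusted p = 0.0095), and Eno2, the neuronal enolase, rose by 1.72 ± 0.26 (adjusted p = 0.016). Of astrocyte genes, Gpr37l1 (an orphan receptor) rose by 3.26 ± 0.70 (adjusted p = 0.034), and Ttyh1 (a membrane protein) by 2.18. Fabp7, a fatty acid carrier, averaged 6.76, 1.02 and 7.76 CPM in LPS+Tβ4, LPS and saline kidneys: it rose by 2.73 over LPS and did not pass in LPS+Tβ4 against saline (-0.20, adjusted p = 0.80). Kcnj10, a potassium channel that astrocytes share with kidney tubules, rose by 1.88 over LPS but had a log2 fold change of -2.36 in LPS over saline. Of the 24, 16 were also higher in LPS+Tβ4 than in saline, 1 was lower (Fgfr3) and 7 did not pass; in LPS against saline, 3 of the 24 were higher and 8 lower, beside 20.9% and 22.2% of all genes. Aqp4, the astrocyte water channel that also lies in kidney collecting ducts, had 1097, 903 and 20733 counts in LPS+Tβ4 kidneys, 25809, 16047 and 80 in LPS kidneys and 483, 11879 and 3266 in saline kidneys. It was high in the same 5 kidneys that were rich in urothelial genes. Rbfox3 (NeuN), a splicing factor of mature neurons, had 285, 394 and 451 counts in LPS+Tβ4 kidneys, 174, 60 and 29 in LPS kidneys and 19, 85 and 93 in saline kidneys.

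**Figure D4:**
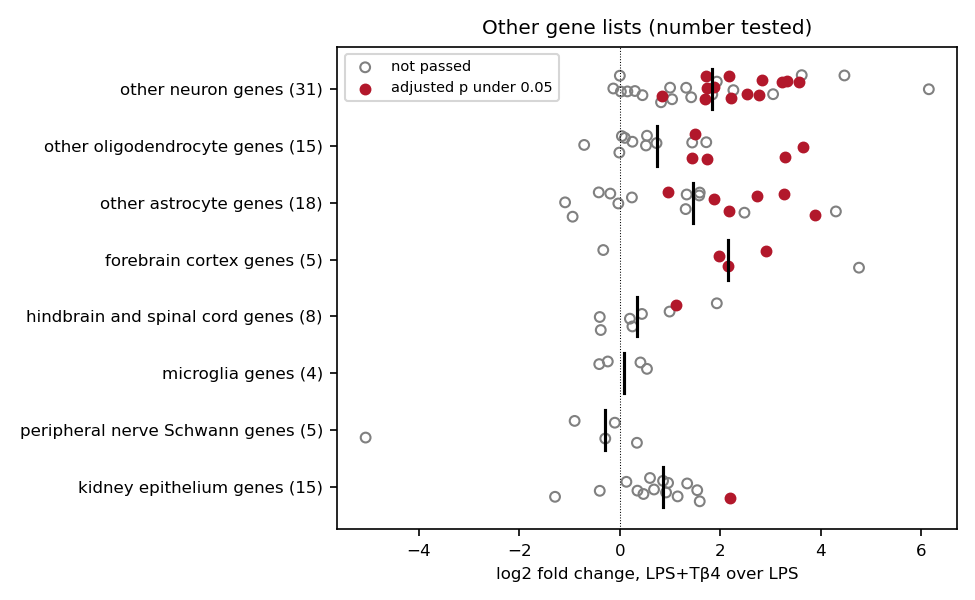
Log2 fold change of LPS+Tβ4 over LPS (edgeR) for genes in 8 lists outside the 31, with the number tested in brackets; each circle is a gene, filled where the adjusted p is under 0.05, and the bar is the list's median. Most filled circles lie in the neuronal, oligodendrocyte, astrocyte and forebrain rows.

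Genes tied to regions of the nervous system were counted from more than 1 region. Of 5 tested forebrain cortex genes, 3 were higher in LPS+Tβ4 than in LPS by edgeR: Nptx1, a secreted pentraxin (2.90 ± 0.48, adjusted p = 0.018), Emx1, a cortical homeobox factor that saline kidneys also held at 21.1 CPM (2.15 ± 0.41, 0.026), and Rtn4r, a receptor for myelin proteins (1.97 ± 0.46, 0.042). Lamp5 had 4.76 ± 1.08 and did not pass (adjusted p = 0.052). Over all genes 4.5% were called higher. Of the 5 forebrain genes, 3 reached the filter on the saline libraries alone and hold 2 of the 3 calls. The rest reached it through the levels of the other groups, so their values lean on the contrast tested. Penk, the enkephalin precursor of striatal neurons, rose by 3.23 ± 0.53 (adjusted p = 0.018), 1 of 3 tested striatum genes. Of hindbrain and spinal cord genes 1 of 8 passed, Hoxc6 (1.11, adjusted p = 0.041), which saline kidneys also expressed at 12.4 CPM. Several genes of that list fell under the filter yet were counted almost only in LPS+Tβ4. Slc5a7, the choline transporter of cholinergic neurons, had 107, 91 and 115 counts in LPS+Tβ4 kidneys and none in the 6 others. Chat, which makes acetylcholine, had 43, 51 and 42 counts and Slc18a3, the vesicular transporter that lies inside the Chat locus, 39, 42 and 63, with none in the others. Whether these transcripts came from the sampled kidneys, from other tissue or from another library was not tested. Slc17a6, the glutamate transporter typical of brainstem and thalamus, had 185, 191 and 216 counts in LPS+Tβ4 kidneys, 150, 0 and 0 in LPS kidneys and none in saline kidneys. Neurod6, a transcription factor of cortical excitatory neurons, differed from these in that saline kidneys held it too. It had 83, 101 and 105 counts in LPS+Tβ4 kidneys, 0, 67 and 9 in LPS kidneys and 65, 37 and 103 in saline kidneys. No gene of the cerebellum list (0 of 2 tested) or the hypothalamus and pituitary list (none tested) passed. The tested cerebellum genes, Car8 and Pvalb, had their highest means in saline kidneys, 11.0 and 18.5 CPM. The rest fell under the filter. Of the 11 cerebellum genes counted, 4 had LPS+Tβ4 ranges wholly above LPS and 0 wholly below, beside 14.4% and 11.9% of all genes tested. These lists therefore do not show that a region was absent. Of retina genes, Gnat1, the rod transducin, was the only 1 tested, and it reached the filter only through the groups that had received LPS, with 0 retina genes reaching it on the saline libraries alone. It averaged 11.4, 2.42 and 0.380 CPM in LPS+Tβ4, LPS and saline kidneys.

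Markers of other cell types and tissues were read in the same fit. Of microglia genes 0 of 4 passed between LPS+Tβ4 and LPS, and Tmem119 had 1750, 2280 and 2190 counts in LPS+Tβ4 kidneys, 1353, 3160 and 1789 in LPS kidneys and 408, 628 and 636 in saline kidneys. Of Schwann cell genes 0 of 5 passed. Pmp22, a membrane protein of peripheral myelin that other cells also make, averaged 12.6, 15.3 and 15.4 CPM in LPS+Tβ4, LPS and saline kidneys, and its log2 fold change of -0.29 ± 0.32 over LPS did not pass (adjusted p = 0.63). Of sympathetic and chromaffin genes, Slc18a1, a monoamine transporter at 219, 68.4 and 229 CPM in LPS+Tβ4, LPS and saline kidneys, passed (1.68 ± 0.26, adjusted p = 0.016), though it overlaps Atp6v1b2 on the opposite strand, which had 2.27 times its counts, and Prph, tested beside it, did not. Th, which makes catecholamines, had 5, 0 and 12 counts in LPS+Tβ4 kidneys, 61, 10 and 0 in LPS kidneys and none in saline kidneys. Cyp11b1, of the adrenal cortex, had at most 9 counts in any kidney; 0 of 2 adrenal cortex genes tested passed. None passed among 10 liver, 7 fat, 5 urothelium, 2 skeletal muscle and 2 choroid plexus and ependyma genes tested, and no pancreas gene was tested. At an unadjusted p under 0.05 these lists without a call held 1 lower Schwann cell gene, 1 higher choroid plexus and ependyma gene and 0 of the rest. Of 15 kidney epithelium genes 1 passed, Atp6v1b1, a proton pump subunit (2.19 ± 0.32, adjusted p = 0.015). At an unadjusted p under 0.05, 6 of the 15 were higher and 0 lower, and the list's median log2 fold change was 0.86. The ranges of 6 lay wholly above those of LPS, beside 14.4% of all genes. In LPS against saline 12 of the 15 were lower, beside 22.2% of all genes, with a median of -2.44. The part of kidney epithelium in the levels of the 31 was not tested. All 5 erythroid genes were lower in LPS+Tβ4 than in LPS by edgeR, beside 2.33% of all genes, led by Hbb-bs (-1.58 ± 0.18, adjusted p = 0.0084). Their summed levels were 181 to 261 CPM in LPS+Tβ4 kidneys, 533 to 703 CPM in LPS kidneys and 544 to 689 CPM in saline kidneys. The part of red cell RNA in the levels of the 31 was not tested.

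LPS replicate 1 carried a different neural set. A list of 12 sensory neuron genes, chosen after the values had been seen and so not tested, summed to 158, 203 and 505 counts in LPS+Tβ4 kidneys, 5466, 320 and 92 in LPS kidneys and 280, 395 and 447 in saline kidneys. Scn10a, a sodium channel of pain-sensing neurons, had 737 counts in LPS replicate 1, 4 in LPS replicate 2 and none elsewhere. Mrgprd, a receptor of skin-innervating sensory neurons, had 156 counts in LPS replicate 1 and none elsewhere. Prph (peripherin), a filament of peripheral neurons, had 81, 67 and 88 counts in LPS+Tβ4 kidneys, 696, 23 and 0 in LPS kidneys and 0, 9 and 4 in saline kidneys. The library in which Nefl, Nefm and Stmn2 matched LPS+Tβ4 was thus also the one high in sensory neuron genes, and the part of these in the neurofilament levels was not tested. Nor was it tested whether the sensory neuron transcripts came from that kidney, from other tissue or from another library.

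**Figure D5:**
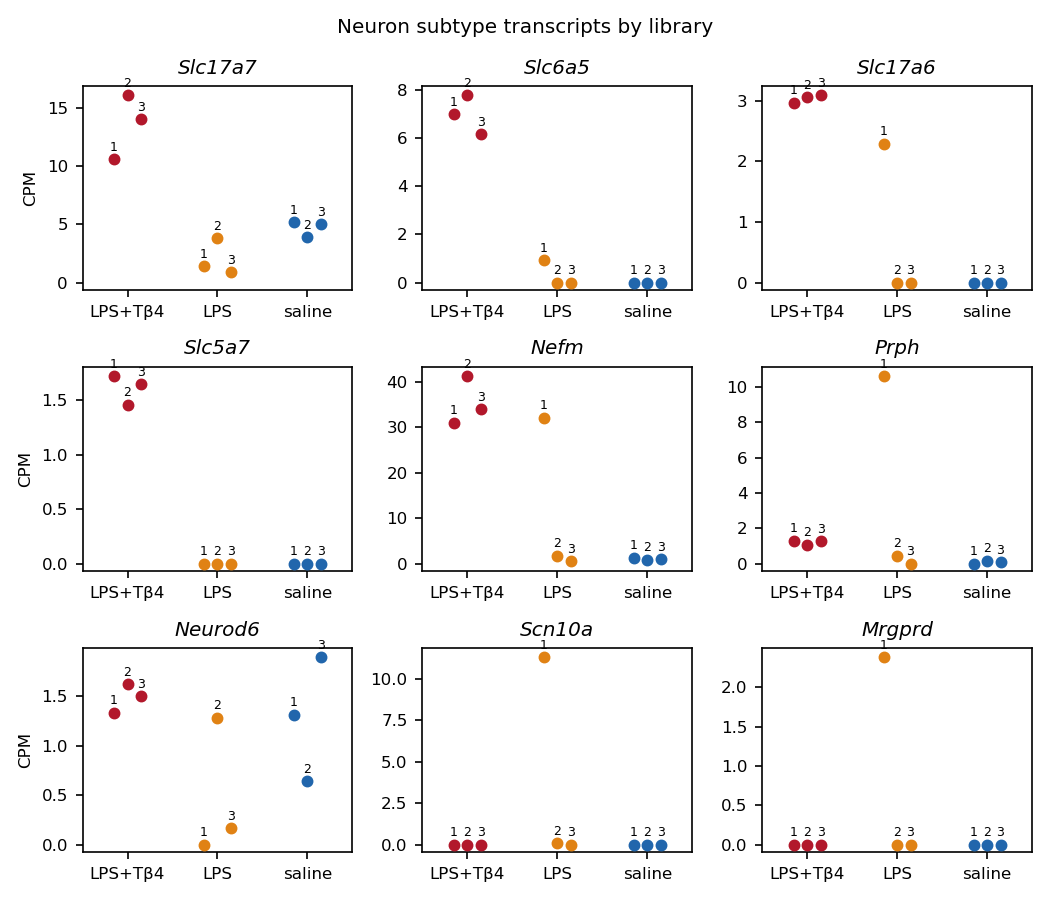
CPM per kidney of transmitter, neurofilament, cortical and sensory neuron transcripts, in a panel each with its own linear axis from 0; points are kidneys numbered by replicate. Slc17a7, Slc6a5, Slc17a6, Slc5a7 and Nefm are high in all 3 LPS+Tβ4 kidneys, and LPS replicate 1 is high for Nefm and Slc17a6 and the highest of all for Prph, Scn10a and Mrgprd.

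Of genes in no list, the 10 with the largest log2 rise over LPS under a set rule included neuronal genes. The rule took genes that pass in this contrast, so their adjusted p-values are a description and not support. Camkv had 3.12, 3.84 and 3.29 FPKM in LPS+Tβ4 kidneys and at most 0.337 FPKM in any other. It met the rule's mean of at least 1 FPKM only through LPS+Tβ4. The same held for Hpca, Nsg2, Tppp and Tchhl1, with at most 1.18, 0.931, 1.01 and 0.944 FPKM in any other kidney. Camkv, a synaptic kinase-like protein, averaged 13.6 ± 1.92, 0.711 ± 0.513 and 1.35 ± 0.204 CPM in LPS+Tβ4, LPS and saline kidneys (log2 4.26 ± 0.65, adjusted p = 0.016 by edgeR). Hpca (hippocalcin), a calcium sensor of hippocampal neurons, rose by 3.27 ± 0.45 (adjusted p = 0.013), Nsg2, a neuronal endosome protein, by 3.39 ± 0.33 (adjusted p = 0.0059) and Tppp, a tubulin-binding protein of oligodendrocytes, by 3.11 ± 0.38 (adjusted p = 0.010). Ddn (dendrin), shared by dendrites and kidney podocytes, rose by 3.34 ± 0.46 (adjusted p = 0.013) and averaged 26.2, 2.60 and 12 CPM in LPS+Tβ4, LPS and saline kidneys. Slc2a2, the glucose transporter of proximal tubule, was also among them, with 133 ± 30.1, 11.7 ± 3.16 and 215 ± 37.6 CPM in LPS+Tβ4, LPS and saline kidneys (3.51 ± 0.26, adjusted p = 0.0026). Unlike Camkv, Hpca, Nsg2, Tppp and Ddn, Slc2a2 had its highest mean in saline. Its difference between LPS+Tβ4 and saline did not pass (adjusted p = 0.068 by edgeR). The means of some listed neural genes, such as Tspan2, Fabp7, Kcnj10 and Emx1, were also highest in saline. None of these passed in LPS+Tβ4 against saline (adjusted p = 0.061 to 0.83 by edgeR). The others of the 10 were Tchhl1, A4gnt, Nat8f2 and Misp3, at log2 rises of 3.36, 3.27, 3.20 and 3.06. A4gnt and Misp3 likewise had their highest means in saline. Against saline, A4gnt passed (adjusted p = 0.013 by edgeR) and Misp3 did not (adjusted p = 0.48).

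Some of the loci overlap other genes. Of the 31, 15 overlap another gene of the table, and 6 overlap one with at least 10% as many counts, each on the opposite strand: Nefl and Nefm each other, Cnp with Dnajc7, S100b with Dip2a, Gad1 with Gad1os, and Syn1 with Araf and Timp1. The library kit marks strand, but whether the counting used it is not given in the sources used here, so reads of these partners may not be told apart. Dip2a, for example, had 6.26 times the counts of S100b, and Timp1, which lies within Syn1, 2.89 times those of Syn1. Araf had 21.3 times the counts of Syn1, but it ends at 20860519 where Syn1 begins at 20860511, so they share only a few bases.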

How the data were processed

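Kidney RNA was captured by poly(A) and sequenced as paired reads from a strand-marking library kit, per the labels' protocols. Per the submitters' processing notes, cutadapt 1.9, HISAT2 2.2.1, StringTie 2.1.6, DESeq2, edgeR and the build GRCm38 were used; no source used here says which tool did what, or with which gene annotation. The deposited table gives raw counts per gene and, beside them, FPKM values computed by the authors. Counts were fitted for all 9 libraries together with edgeR 4.0.16 (R 4.3.3; quasi-likelihood F test, 2-sided, a mean per group, TMM scaling) over 15015 genes with a mean of at least 0.5 FPKM, with Benjamini-Hochberg adjustment and a threshold of 0.05. CPM are the counts scaled by TMM, and FPKM served to set genes side by side. The fit was tested on simulated data.

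The members and lists were chosen with earlier results of these data known. All 31 members are named. From each other list up to 4 tested genes with the smallest adjusted p in LPS+Tβ4 against LPS could be named, with 7 defining markers whatever their values; some genes under this rule are not reported here. From genes in no list, the 10 with the largest rise that passed, had separate group ranges, a mean of at least 1 FPKM and a gene symbol were named. Slc5a7, Chat, Slc18a3, Slc17a6, Neurod6, Fgfr3 and the 12 sensory neuron genes were named after their values were seen. A fold against a group with no counts is a lower bound from 3 counts over that group. Alternatives used DESeq2 1.42.0 and limma 3.58.1. Libraries came from 3 mice a group, per the series' design text. Figures were drawn with matplotlib 3.10.9.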

Additional observations from a re-analysis of the deposited data

How the results depend on the processing

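The 26 members' median log2 change of LPS+Tβ4 over LPS, 2.75, became 0.75 with a filter of mean FPKM of at least 5, which 4 members passed, 1.87 with a filter on the saline libraries alone (added after seeing the data), and 1.67 with limma on log2(FPKM + 1), which understates low genes. Over saline the median, 3.00, became 2.39 with the stricter filter and 1.81 with limma on log2(FPKM + 1). Leaving out 1 kidney at a time gave 2.36 to 3.56 over LPS and 2.91 to 3.15 over saline. The 5 members called in LPS against saline became 1 with the stricter filter, 3 with the saline filter, 1 with limma on log2(FPKM + 1), 2 with limma on log2(FPKM + 0.1), and 4 to 9 leaving out 1 kidney. Cnp passed under all 20 alternatives; Slc1a2 was lost in 2 of 19, Chga in 2 of 17 and Chgb in 1 of 18, all with limma. The 24 other neural genes called in LPS+Tβ4 against LPS became 5 (stricter filter), 41 (filterByExpr), 41 (DESeq2), 0 (6 libraries only) and 3 to 36 (1 kidney out). The 27 called in LPS against saline became 10 with the stricter filter and 17 to 31 with 1 kidney out. Over all genes the 1025 calls of LPS+Tβ4 against LPS became 647 without a filter, 638 with the stricter one, 2442 with DESeq2, 3 with 6 libraries and 68 to 2672 with 1 kidney out; the 6473 of LPS against saline became 3754 with the stricter filter and 4884 to 6903. Some of these settings hold fewer genes or libraries, and the cause of the shifts was not tested.

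Replicate numbers did not pair the kidneys: deviations from group means correlated at -0.66 to 0.32 for same-numbered kidneys and -0.48 to 0.51 for others. With the replicate number as a block, 5 genes in all and 0 of the other neural genes passed in LPS+Tβ4 against LPS (41 of these at an unadjusted p under 0.05), and 4 members in LPS against saline.

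Changes of sign touched only members that had not passed in LPS against saline. With 1 kidney left out, the log2 changes of LPS over saline ranged over -0.75 to 0.78 for Mag, -0.72 to 0.43 for Mal, -0.24 to 0.92 for Gfap, -0.59 to 0.86 for S100b, -1.48 to 2.95 for Slc6a11, -0.05 to 1.55 for Aldoc, -0.85 to 0.33 for Snap25, -0.06 to 0.22 for Syt1, -0.19 to 1.05 for Syn1, -1.02 to 2.18 for Stmn2, -0.86 to 3.07 for Nefl and -0.76 to 0.37 for Vsnl1, with the lowest value of each without LPS replicate 1. Mal became 0.05 without a filter and 0.08 with the saline filter, S100b -0.06 with limma on log2(FPKM + 0.1), and with the block Syt1 became -0.01 and Vsnl1 -0.09.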

Other observations

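Several neural genes outside the 31 had no count in any saline kidney. Of the 93 neural genes in the lists 6 were at 0 in all saline kidneys. For 57 of the 93 all 3 LPS+Tβ4 kidneys lay above all 6 others, beside 3.62% of all genes tested. Of the 93, 64 passed the filter, and the lists were written with earlier results of these data known. Opalin, a membrane protein of oligodendrocytes, had 26, 43 and 50 counts in LPS+Tβ4 kidneys and none in LPS or saline kidneys, at least 35.3-fold higher than a floor of 3 counts over the LPS group. Ermn, a myelin cytoskeletal protein, had 328, 403 and 356 counts in LPS+Tβ4 kidneys, 17, 0 and 0 in LPS kidneys and none in saline kidneys. Gria2, a glutamate receptor subunit, had 993, 1139 and 1097 counts in LPS+Tβ4 kidneys, 14, 192 and 25 in LPS kidneys and 190, 234 and 228 in saline kidneys. LPS replicate 1, the richest of the LPS kidneys in neurofilament transcripts, had the fewest Gria2 counts, close to those of LPS replicate 3. These genes were chosen after their values were seen.

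Xist, the RNA that coats the inactive X chromosome of female cells, had 20, 5 and 37 counts in LPS+Tβ4 kidneys, 261, 23 and 8 in LPS kidneys and 12, 32 and 9 in saline kidneys. Its highest count fell in LPS replicate 1, the library high in sensory neuron genes. The Y-linked Ddx3y had 4067 to 4752 counts in LPS+Tβ4 kidneys, 4522 to 5879 in LPS kidneys and 4062 to 4589 in saline kidneys. No label gives the sex of the mice, and a link between these values was not tested.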
